A study of Homo sapiens with 22 samples.

Results

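The Notch pathway was described in renal proximal tubule epithelial cells (RPTEC) through 10 genes, which were the receptors NOTCH1, NOTCH2 and NOTCH3, the ligands JAG1, JAG2 and DLL1, and the target genes HES1, HES4, HEY1 and NRARP. They were chosen by name, with earlier results of these data known. Of these 10 genes, 9 had a row in the table of 36859 genes. The tests took in 7 of them, which reached 10 normalized counts in 2 libraries or more, as 14585 genes did in all. NRARP was not analysed here.

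RNA-seq was available for 22 libraries of RPTEC immortalized with hTERT, in 11 groups of 2 replicates. Cells of 5 groups were grown with 2% serum: untreated WT cells, WT cells given TGF-β at 10 ng/mL for 72 h, the CRISPR clones KO1 and KO2 with SETD2 cut in exon 3, and a line labelled KO2 rescue. The other 6 groups were grown with 10% serum. Rescue1 and Rescue2 were KO clones given lentiviral full-length SETD2 with a FLAG tag, selected with blasticidin and picked as single colonies, and the study's supplement derives both from KO2. The last 4 groups were WT cells transduced with eGFP (the control vector), SOX2, OCT2 or PRRX1 and selected with puromycin. KO1, KO2, Rescue1 and Rescue2 are each a clone, and no KO library was grown with 10% serum, so serum and SETD2 re-expression cannot be told apart between the rescue clones and KO2. Serum and transduction likewise cannot be told apart between eGFP and WT cells. The labels do not say that replicates came from separate cultures, so p-values measure the spread between these libraries, which may be technical.

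Notch receptors are cell surface proteins that are cleaved when a ligand of the Jagged or Delta family on a neighbouring cell binds them. The freed intracellular part enters the nucleus, joins the DNA-binding protein RBPJ and Mastermind co-activators, and switches on HES and HEY genes, whose products are transcriptional repressors. In the kidney the pathway is known for its part in proximal nephron formation and, in the adult tubule, in injury and fibrosis.

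The values are normalized counts, recovered from the deposited log2 values, with 1 read worth 0.802 to 1.55 of them, depending on the library. Each library summed to 11700000 to 16800000 normalized counts, or about 7800000 to 18600000 reads. SETD2 mRNA, which a frameshift need not remove, was 1852 and 2061 in WT, 1046 and 1130 in KO1 and 1050 and 1052 in KO2. It was 9764 to 10445 in the 4 rescue libraries. In the libraries labelled KO2 rescue it was 834.5 and 819.6, below KO2 (log2 change −0.35, limma adjusted p = 0.00382), which goes against the label. Other genes of these libraries stood apart from KO2, with KRT8, an epithelial keratin, higher by a log2 change of 1.07 (limma adjusted p = 6.8e-08), DCN, the matrix proteoglycan decorin, lower by −1.41 (limma adjusted p = 8.2e-05), and PRRX1 at 0 and 0.66 normalized counts against 34.8 and 28.4. Among proximal tubule markers LRP2, SLC34A1, SLC5A2 and HNF4A stayed under 10 normalized counts in every library, while PAX8 and PAX2, renal lineage factors, summed to 1952 to 7473.

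A low value in this table does not show that a gene is silent. Genes that every cell uses were also at or near 0, such as PRPF8, a core splicing factor, at 0 to 15.7 normalized counts, and NDUFB7, a subunit of the respiratory chain, at 0 to 3.81. These were picked after their values had been seen. The low members below are therefore given as they are listed, with no fold against a group listed at 0 in both libraries, and levels are not compared between genes.

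HES1 and HES4 are direct Notch targets, and the letters to which RBPJ binds, GTGGGAA, occur once in each of their promoters. The bases upstream of the RefSeq start site are shown for these 2 genes because HES1 and HES4 carry most of the target gene results. The sequences are from RefSeq on GRCh38 and read 5′ to 3′ on the strand of the gene, with GTGGGAA in capitals. HES1 lies on chromosome 3 from 194136148 to 194138732 on the plus strand, and its window is chr3:194135898-194136147. HES4 lies on chromosome 1 from 998962 to 1000172 on the minus strand. Its printed window is chr1:1000158-1000347, of which the last 15 bases lie inside the GENCODE gene. These bases take in part of GTGGGAA, so in HES4 the motif crosses the GENCODE start. The window searched for HES4 ran on to 1000098, next to the RefSeq start, and that part is not printed.
HES1: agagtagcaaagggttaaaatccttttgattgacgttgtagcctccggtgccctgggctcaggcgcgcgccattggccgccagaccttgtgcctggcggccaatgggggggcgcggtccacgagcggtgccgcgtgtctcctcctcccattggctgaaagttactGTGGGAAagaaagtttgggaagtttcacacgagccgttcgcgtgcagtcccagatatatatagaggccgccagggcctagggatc
HES4: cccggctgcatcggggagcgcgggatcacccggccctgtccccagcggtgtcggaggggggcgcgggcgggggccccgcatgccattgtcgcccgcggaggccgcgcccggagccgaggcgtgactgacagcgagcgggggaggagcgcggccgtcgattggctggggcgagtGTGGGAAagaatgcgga

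The GTGGGAA of HES1 begins 85 bases before the RefSeq start and that of HES4 77 bases before it. The longest stretch that both printed windows share is TGTGGGAAAGAA, 12 bases that hold this motif. Searched on both strands over 250 bases, GTGGGAA was present in 1906 of 35116 promoters (5.43%), and among the 8 members with a promoter sequence it was found in HES1 and HES4. The N-box, CACNAG, to which HES proteins bind, was present 3 times in the HES1 window, at 165, 132 and 58 bases before the start, and in 32% of all promoters. A match is a description of letters and not a site of binding, and 2 members, DLL1 and HEY1, were not searched.

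JAG1, the ligand with the widest range, was highest in TGF-β-treated WT cells and lowest in KO1. WT libraries held 9613 and 3668 normalized counts, TGF-β libraries 26724 and 25306, KO1 libraries 86.6 and 95.5, and KO2 libraries 335.9 and 403.6. None of these 4 groups overlapped, and how many of all genes separate them was not counted. JAG1 lies on chromosome 20 from 10637684 to 10673999.

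In the other groups JAG1 lay between these extremes. It was 365.2 and 297.7 in the libraries labelled KO2 rescue, 939.5 and 1040 in Rescue1, and 1148 and 1211 in Rescue2. In transduced WT cells it was 2545 and 2686 with eGFP, 3058 and 2917 with SOX2, 3052 and 3294 with OCT2, and 2930 and 2223 with PRRX1. Both rescue clones sat above KO2 and below all 8 libraries of transduced WT cells. In the order of group means, neighbours overlapped only between OCT2 and SOX2, between eGFP and PRRX1, and between KO2 and the group labelled KO2 rescue.

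JAG2, a second Jagged ligand, had 48.1 and 0 normalized counts in WT cells. TGF-β-treated cells held 45.2 and 48.5 of JAG2, KO1 cells 71.2 and 27.9, and KO2 cells 50.5 and 20.8. It reached 158.7 in 1 Rescue1 library against 51.3 in the other. JAG2 passed the test in no comparison. DLL1, a Delta-like ligand, was listed at 0 in all 22 libraries.

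**Figure D1:**
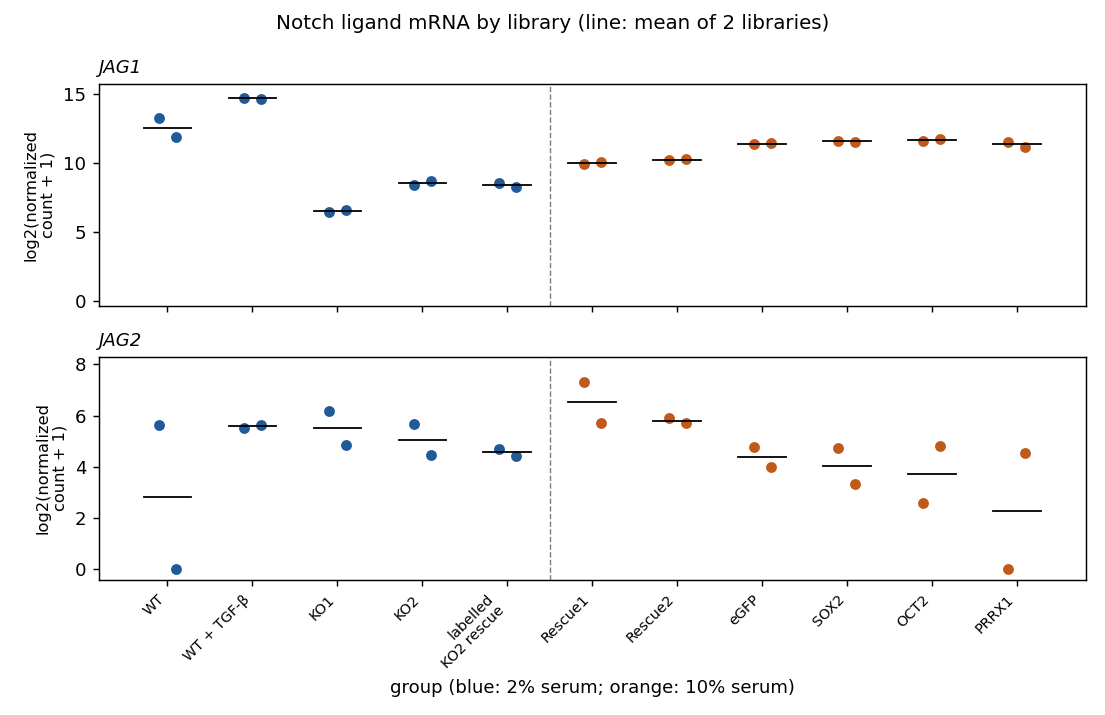
Normalized counts of the Notch ligands JAG1 and JAG2 in each library, as log2(normalized count + 1), by group; points are libraries, black lines the mean of 2 libraries, blue groups had 2% serum and orange groups 10%. JAG1 is highest in WT cells with TGF-β (26724 and 25306 normalized counts) and lowest in KO1 (86.6 and 95.5), while JAG2 ranges from 0 to 158.7 with replicates far apart.

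HES1, a repressor and the best known Notch target, separated the libraries by serum. It was 2.6 normalized counts (about 3 reads) in each WT library, 9.3 and 18.0 with TGF-β, and was listed at 0 in both KO1 and both KO2 libraries. In the libraries labelled KO2 rescue it was 0 and 3.2. With 10% serum it was 336.9 and 299.8 in Rescue1, 270.1 and 208.3 in Rescue2, 1134 and 1060 with eGFP, 952.3 and 937.0 with SOX2, 946.1 and 887.7 with OCT2, and 991.1 and 795.1 with PRRX1.

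The 10 libraries with 2% serum thus held 0 to 18.0 normalized counts of HES1, with 5 at 0, and the 12 libraries with 10% serum held 208.3 to 1134, so the serum classes did not overlap. HES1 was 1 of 7 tested members without overlap, all libraries of the higher class having 10% serum. Of all genes tested 2.58% did not overlap between the classes in either direction. All 12 libraries with 10% serum were also of lentivirally transduced cells, which WT, TGF-β and KO cells in 2% serum were not, and serum and transduction cannot be told apart.

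HES4, a second Hairy family repressor, was lowest in the KO clones. WT libraries held 330.3 and 301.8 normalized counts, TGF-β libraries 380.1 and 381.8, KO1 libraries 125.2 and 77.2, and KO2 libraries 78.0 and 95. The 4 KO libraries lay below all 18 others, whose lowest value was 184.5. How many of all genes tested separate the KO libraries in this way was not counted. In the libraries labelled KO2 rescue HES4 was 235.6 and 269.8, in Rescue1 306.1 and 219.3, and in Rescue2 225.9 and 184.5. The 8 libraries of transduced WT cells held 210.6 to 262.8. Unlike HES1, HES4 overlapped between serum classes, with 77.2 to 381.8 in 2% and 184.5 to 306.1 in 10% serum.

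HEY1, a relative of the HES repressors, had low counts. Its normalized counts were 5.1 and 9.8 in WT libraries and 7.9 and 8.7 in TGF-β libraries. Both KO1 libraries were listed at 0, and the KO2 libraries at 0 and 19.6. With 10% serum it was 10.1 to 65.0 in the rescue clones and 35.4 to 137.8 in transduced WT cells. The highest value with 2% serum, 30.4, was in a library labelled KO2 rescue, so the rescue clones overlapped with that class and transduced WT cells did not.

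**Figure D2:**
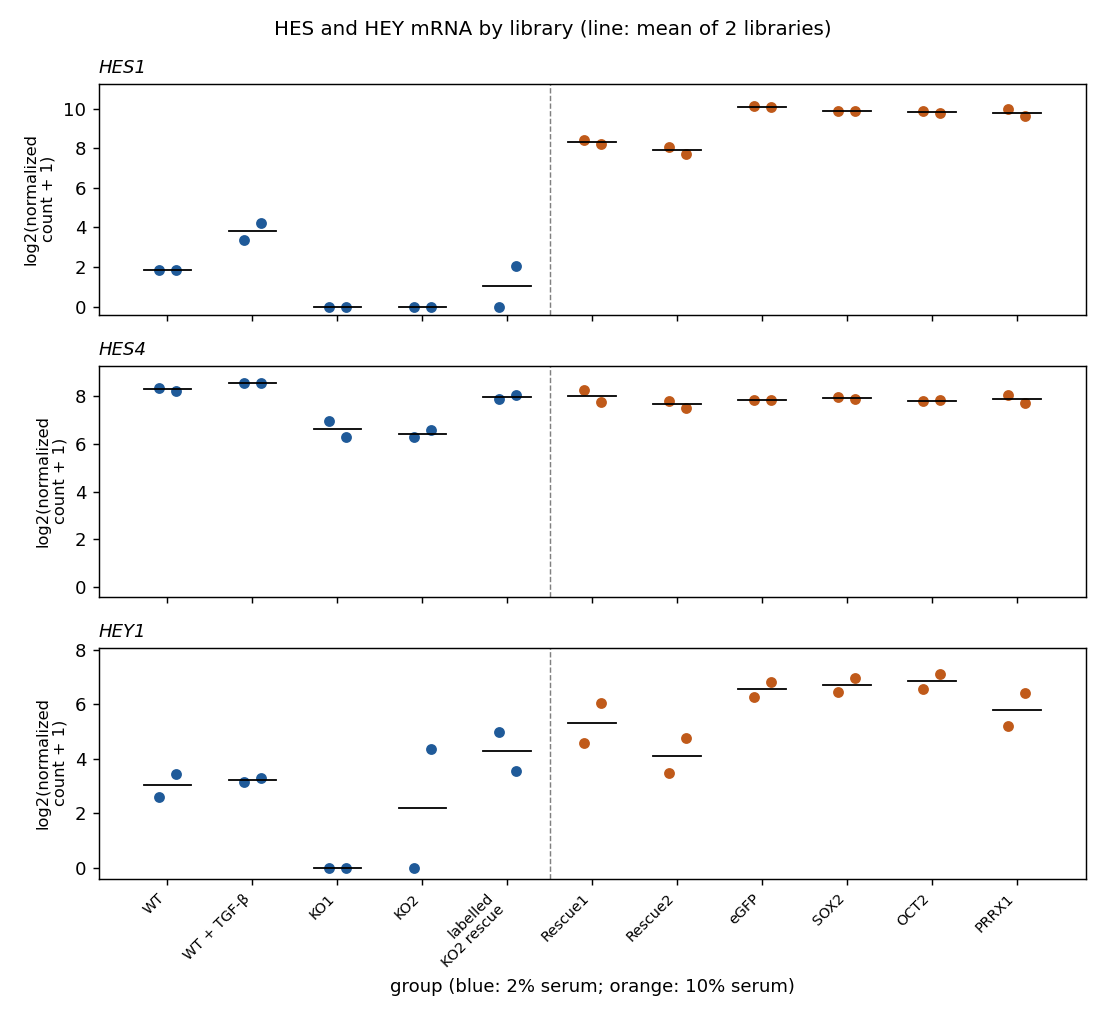
Normalized counts of the target genes HES1, HES4 and HEY1 in each library, as log2(normalized count + 1), by group; points are libraries, black lines the mean of 2 libraries, blue groups had 2% serum and orange groups 10%. HES1 lies at 0 to 18.0 normalized counts in every 2% library and at 208.3 to 1134 in every 10% library, while HES4 is lowest in the 4 KO libraries (77.2 to 125.2).

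The receptors were listed at few counts in every group. NOTCH1 was 0 to 50.6 normalized counts over the 22 libraries with a median of 10.2, and its replicates were as far apart as 40.9 and 2.5 in Rescue1. NOTCH2 was 0.6 to 45.1 with a median of 15.2, and the TGF-β libraries were at 45.1 and 25.7. NOTCH2NLA, a near-identical partial copy of NOTCH2, was at 183.9 to 382.9, so reads of the shared stretch may have been assigned to either and NOTCH2 is uncertain. NOTCH3 did not exceed 3.93 in any library and was not tested. These levels cannot be taken as the amount of receptor, given the low listing of other widely used genes, and how much of each gene's annotated transcripts (16 for NOTCH1, 11 for NOTCH2 and 6 for NOTCH3) the table covers was not tested.

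**Figure D3:**
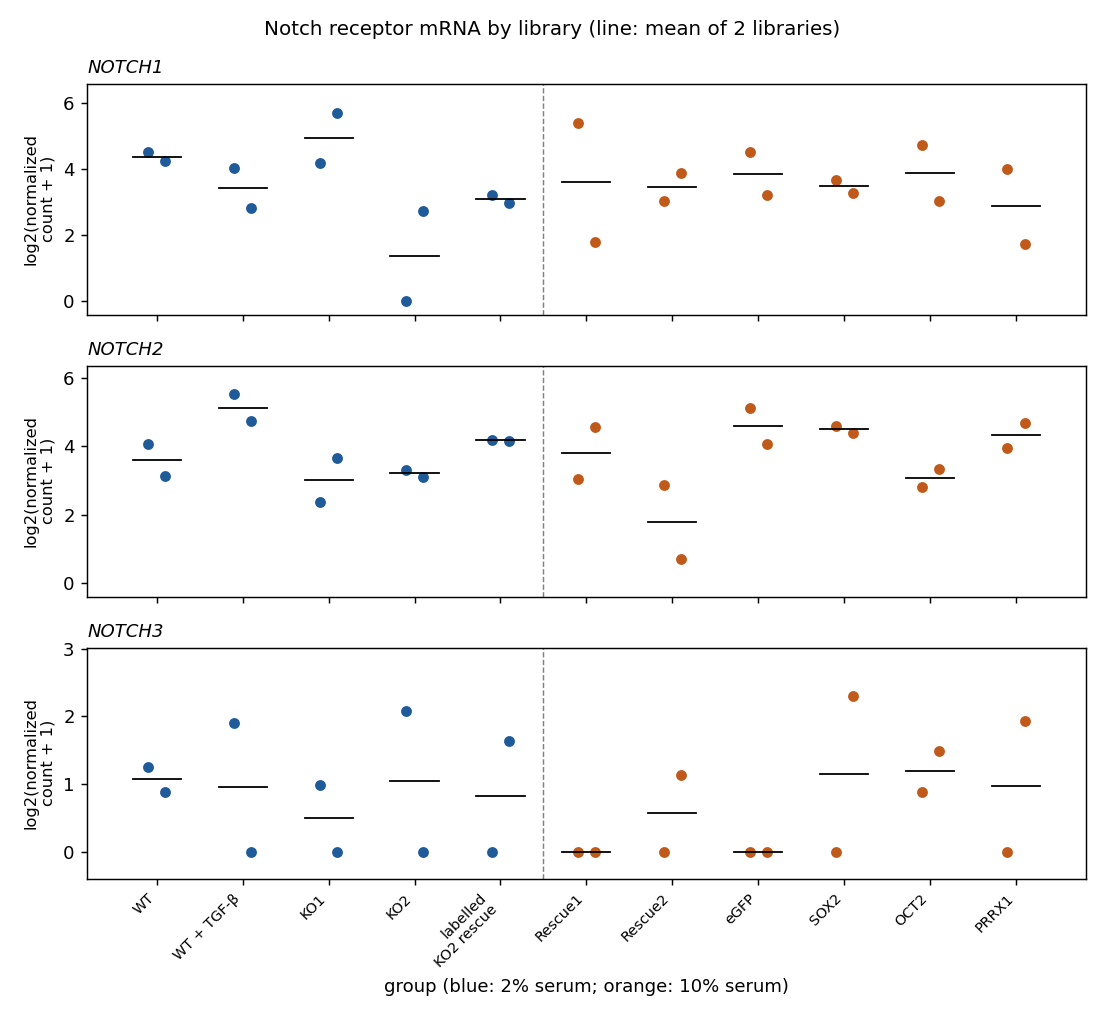
Normalized counts of the receptors NOTCH1, NOTCH2 and NOTCH3 in each library, as log2(normalized count + 1), by group; points are libraries, black lines the mean of 2 libraries, blue groups had 2% serum and orange groups 10%. NOTCH1 reaches at most 50.6 and NOTCH2 at most 45.1 normalized counts, with replicates often far apart, and NOTCH3 does not exceed 3.93.

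TGF-β was tested in WT cells to set its effect beside that of SETD2 loss, and JAG1 and HES1 were called higher. A gene was called with a limma adjusted p under 0.05 and a log2 change over 1 in size, and 2 of 7 tested members were called higher and 0 lower, where 7.84% of all genes tested were called. JAG1 rose with a log2 change of 2.13 (SE 0.29, limma adjusted p = 1.2e-04). The WT replicates were far apart for JAG1, and leaving out WT replicate 1 gave 2.83 and leaving out WT replicate 2 gave 1.44. In a fit of only the 4 libraries compared the limma adjusted p was 0.0714. The spread was not confined to JAG1, with COL1A1, for one, at 11919 and 531.9 in the WT replicates. Over 2101 genes with high counts these replicates differed by a median of 0.159 in log2, the most of any group, and KO1 followed at 0.147. WT is the control for the TGF-β, KO1, KO2 and eGFP comparisons.

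HES1 rose with TGF-β by 1.94 on the log2 scale (SE 0.50, limma adjusted p = 0.0144), from about 6 reads over the WT libraries to about 25. That is a ratio of 5.02, with an exact 95% interval of 2.01 to 15 that covers counting error only. HES1 would not have been tested on these libraries alone, where it held 2.6 and 2.6 and then 9.3 and 18.0 normalized counts. It passed the filter through the libraries with 10% serum, at 208.3 to 1134. The call was lost without WT replicate 1 (limma adjusted p = 0.0502), WT replicate 2 (0.0666) or TGF-β replicate 2 (0.136). The log2 change of HES4 was 0.27 (SE 0.23, limma adjusted p = 0.508) and that of HEY1 0.20 (SE 1.05, limma adjusted p = 0.956). For the 7 members the median log2 change was 1.52, beside 0.00 for all genes. That median is the value of NOTCH2, which was not called (limma adjusted p = 0.22).

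SETD2 KO lowered JAG1 and HES4 in both clones. In KO1, 4 of 7 members were called lower and 0 higher, where 25% of all genes were called, and in KO2, 3 were called lower and 0 higher, where 16.3% were called. The median change of the members was −1.67 in KO1 and −1.86 in KO2, beside −0.00 and 0.00 for all genes. Both clones share the WT libraries as controls.

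JAG1 changed by −6.01 on the log2 scale in KO1 (SE 0.29, limma adjusted p = 4.1e-10) and by −4.01 in KO2 (SE 0.29, limma adjusted p = 7.2e-08). Leaving out any library of a comparison kept these calls, with −6.71 to −5.32 in KO1 and −4.70 to −3.31 in KO2. KO1 was lower than KO2 by a log2 change of −2.01 (SE 0.29, limma adjusted p = 2.6e-04). JAG1 was the 1 member of 7 called between the clones, where 6.97% of all genes were called.

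HES4 changed by −1.67 in KO1 (SE 0.23, limma adjusted p = 2.9e-05) and by −1.86 in KO2 (SE 0.23, limma adjusted p = 1.7e-05), and between the clones the change was 0.19 (limma adjusted p = 0.633). HES1 passed the test in both clones, but its levels of about 3 reads in each WT library and 0 in KO give no fold. HEY1 passed in KO1, where it was listed at 0, but lost the call when any library of the comparison was left out. NOTCH1 in KO2 had a limma adjusted p of 0.0715 and between the clones of 0.0533.

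Markers of cell state moved in the same comparisons. A list of 6 epithelial genes summed to 35472 to 37774 normalized counts in WT libraries, 28708 to 30233 in TGF-β libraries, 10092 to 12030 in KO1 libraries and 19627 to 20609 in KO2 libraries, with 4 of 6 called lower and 1 higher in KO1 and 2 lower and 1 higher in KO2, where 25% and 16.3% of all genes were called. The gene called higher was CLDN1, a tight junction claudin, at log2 changes of 1.46 and 1.53 (limma adjusted p = 0.0309 and 0.0319). In transduced WT cells the epithelial list summed to 19221 to 20209 with eGFP and 22007 to 23374 with SOX2. It was 21169 to 21275 with OCT2 and 19852 to 21650 with PRRX1, so WT cells in 10% serum were near KO2 too. The sums were 39050 to 40462 in Rescue1, 35880 to 36821 in Rescue2 and 39728 to 40982 in the libraries labelled KO2 rescue. A list of 7 fibroblast or mesenchymal genes summed to 101460 to 138020 in WT libraries, 220750 to 222420 in TGF-β libraries, 294870 to 312170 in KO1 libraries and 201050 to 205160 in KO2 libraries. In KO1 2 of these 7, DCN and PDGFRA, were called higher and 1, COL3A1, lower, and in KO2 DCN and PDGFRA were called higher. DCN alone was 477.5 and 289.2 in WT, 234809 and 221606 in KO1, and 98373 and 94978 in KO2, and the 6 other genes summed to 101170 to 137540 in WT, 73269 to 77365 in KO1 and 106070 to 106780 in KO2. Of an endothelial list of 6 genes, 5 had a row, and they summed to 4.99 to 40.3 in WT, 126 to 146 in KO1 and 148 to 154 in KO2. KDR, a VEGF receptor, made up most of that, at 0.77 and 0 in WT, 123.3 and 102.7 in KO1 and 145.3 and 126.2 in KO2. No epithelial or mesenchymal gene of the lists was under 10 normalized counts in all libraries. Their part in the Notch results was not tested, and in bulk RNA a lower share of cells with a transcript and less RNA per cell cannot be told apart.

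KO and TGF-β-treated cells were compared directly, because both are settings of epithelial-to-mesenchymal transition. In the mean of both clones against TGF-β, 4 of 7 members were called lower and 0 higher, where 20.2% of all genes were called. JAG1 was lower by a log2 change of −7.14 (limma adjusted p = 1.1e-11) and HES4 by −2.04 (limma adjusted p = 1.0e-06). HES1 was listed at 0 in all 4 KO libraries against 9.3 and 18.0, and by these libraries alone it would not have been tested. NOTCH2 had a log2 change of −2.03 (SE 0.67, limma adjusted p = 0.0274), which was lost in a fit of only these libraries (0.0672), without TGF-β replicate 1 (0.206), TGF-β replicate 2 (0.0579), KO1 replicate 1 (0.068) or KO2 replicate 2 (0.0573).

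**Figure D4:**
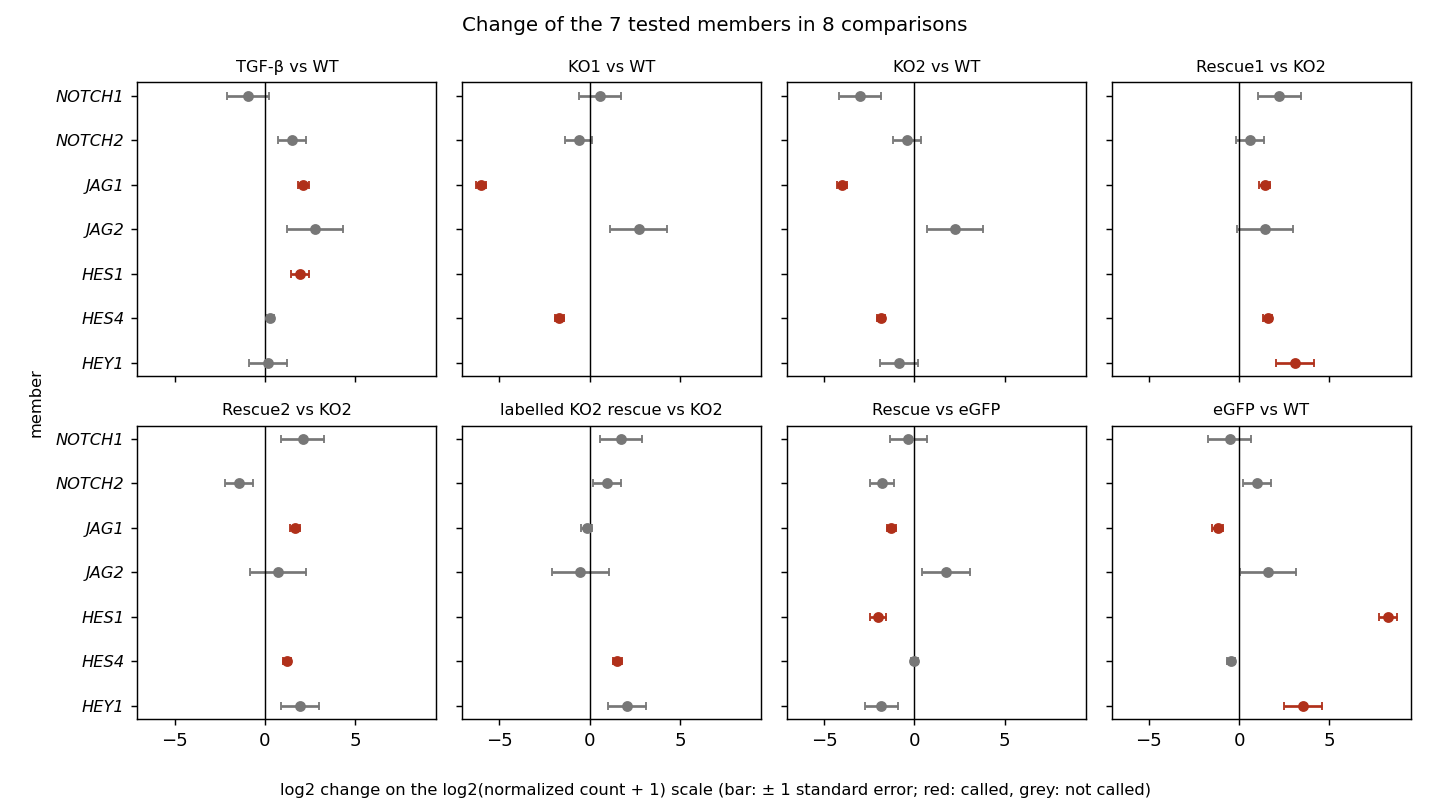
Log2 change of the 7 tested members on the log2(normalized count + 1) scale in 8 comparisons, with bars of 1 standard error; red points were called and grey points were not, and members with a group listed at 0 in both libraries are left out. JAG1 is at 2.13 for TGF-β, −6.01 for KO1 and −4.01 for KO2, and it is above 0 in both rescue clones against KO2.

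Re-expression of SETD2 was compared with KO2. In Rescue1, 4 of 7 members were called higher and 0 lower, where 16.1% of all genes were called, and in Rescue2, 3 were called higher and 0 lower, where 15.3% were called. JAG1 rose by 1.42 in Rescue1 (SE 0.29, limma adjusted p = 0.0017) and by 1.68 in Rescue2 (SE 0.29, limma adjusted p = 4.6e-04). With KO1 in place of KO2 these changes were 3.43 and 3.68.

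HES4 rose by 1.58 in Rescue1 (SE 0.23, limma adjusted p = 8.9e-05) and by 1.24 in Rescue2 (SE 0.23, limma adjusted p = 7.4e-04). HES1 was listed at 0 in KO2 and at 208.3 to 336.9 in the rescue clones. HEY1 rose by 3.12 in Rescue1 (SE 1.05, limma adjusted p = 0.0369), but its KO2 replicates were 0 and 19.6, and leaving out KO2 replicate 1 gave 0.94 and leaving out KO2 replicate 2 gave 5.30. The HEY1 call was also lost without Rescue1 replicate 2, at 2.38 (limma adjusted p = 0.216), and in a fit of only these libraries (0.211). All of these comparisons cross from 2% to 10% serum.

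The comparison within 10% serum set the rescue clones against WT cells with eGFP. Of 7 members 2 were called lower and 0 higher, where 13.1% of all genes were called. JAG1 was lower by a log2 change of −1.28 (SE 0.25, limma adjusted p = 0.00132) and HES1 by −1.99 (SE 0.44, limma adjusted p = 0.00291). For HES4 the change was −0.00 (SE 0.20, limma adjusted p = 1). The rescue clones were thus below eGFP cells for JAG1 and HES1 in all 4 libraries. Between Rescue1 and Rescue2 0 of 7 members were called by limma, with 1, NOTCH2, at an unadjusted p under 0.05, where 0.994% of all genes were called.

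The libraries labelled KO2 rescue had 2% serum, as KO2 had, and 1 of 7 members was called, where 4.17% of all genes were called. HES4 was higher than in KO2 by a log2 change of 1.54 (SE 0.23, limma adjusted p = 3.5e-04). The change of JAG1 was −0.16 (SE 0.29, limma adjusted p = 0.843). HES1 was 0 and 3.2 against 0 in KO2. In these libraries HES4 was thus at 235.6 and 269.8 while SETD2 mRNA was below that of KO2.

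WT cells with eGFP in 10% serum were also set against untreated WT cells in 2% serum, and 2 of 7 members were called higher and 1 lower, where 12.7% of all genes were called. HES1 was higher with a log2 change of 8.24 (limma adjusted p = 3.0e-08), or about 2150 reads against 6, a ratio of 411 with an exact 95% interval of 188 to 1120 that covers counting error only. HEY1 rose by 3.52 (SE 1.05, limma adjusted p = 0.0226), a call lost without WT replicate 1 (0.117), eGFP replicate 1 (0.0678) or eGFP replicate 2 (0.107). JAG1 fell by 1.18 (SE 0.29, limma adjusted p = 0.00693), which became −0.49 and lost the call without WT replicate 1, and −1.88 without WT replicate 2. In a fit of only these libraries its limma adjusted p was 0.148.

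The ectopic transcription factors were compared with eGFP in 10% serum. PRRX1 was at 394.7 and 404.0 in its line, and POU2F2, which encodes OCT2, at 1251 and 1121 in its line against 279 and 357 with eGFP. SOX2 was not analysed here. By limma 0 of 7 members were called with SOX2, OCT2 or PRRX1, and 0 had an unadjusted p under 0.05, where 0.0206%, 0.0343% and 0.0411% of all genes were called. These 3 comparisons share the eGFP libraries.

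The other genes of the pathway were taken from a list of 59, of which 57 had a row and 46 were tested. With TGF-β 2 of 46 were called higher and 2 lower, in KO1 7 and 3, and in KO2 6 and 2. In Rescue1 and Rescue2 against KO2 1 was higher and 4 lower each, and against eGFP 1 was higher and 3 lower. These are 8.7%, 21.7% and 17.4% of the list for TGF-β, KO1 and KO2 and 10.9% for each rescue clone, near or below the shares of all genes, which were 7.84%, 25%, 16.3%, 16.1% and 15.3%. Against eGFP the share was 8.7% of the list and 13.1% of all genes. Their median change was 0.16 for TGF-β, 0.21 for KO1 and 0.23 for KO2, beside medians of all genes of 0.00, −0.00 and 0.00. Leaving out 1 library brought PSEN2 in KO1 to 0.58 (KO1 replicate 2) and NUMBL with TGF-β to 0.79 (WT replicate 1), both under the size needed for a call.

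Among the ligand-handling ubiquitin ligases, NEURL1B, which promotes ligand endocytosis, had 198.8 and 216.3 normalized counts in WT and 225.6 and 224.9 in TGF-β libraries. KO1 libraries held 5.4 and 0 and KO2 libraries 21.5 and 30.7, log2 changes of −6.36 and −2.96 (limma adjusted p = 1.9e-06 and 0.00294). NEURL1B was also low with eGFP, at 27.4 and 25.8, where the change from WT was −2.92 (limma adjusted p = 0.00394), and it was 16.2 to 63.4 in the rescue clones. MIB1, a ligase needed for ligand signalling, was lower in KO than with TGF-β by a log2 change of −1.19 (limma adjusted p = 1.6e-06). MIB2 rose by 1.30 in KO1 (limma adjusted p = 0.0016).

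DTX2, a Deltex ubiquitin ligase that modulates Notch, held 195.9 and 245.6 normalized counts in WT libraries and 149.4 and 108.4 in TGF-β libraries, against 1596 and 1528 in KO1 libraries and 1078 and 849.9 in KO2 libraries. It rose by 2.83 in KO1 (limma adjusted p = 1.1e-08) and 2.12 in KO2 (limma adjusted p = 4.6e-07). All 4 KO libraries were above the 18 others, a separation that was not counted over all genes. In the rescue clones it was 393.2 to 494.0 and in the libraries labelled KO2 rescue 297.7 and 318.9, below KO2 by log2 changes of −1.12 in Rescue1, −1.27 in Rescue2 and −1.63 in the labelled libraries. In Rescue1 the change was −0.95 when Rescue1 replicate 1 was left out and −0.94 when KO2 replicate 1 was, under the size needed for a call.

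APH1B, a subunit of the γ-secretase that cleaves the receptor, was 9.5 and 8.1 in WT, 115.4 and 125.8 in KO1, and 86.3 and 54.2 in KO2. It rose by 3.63 in KO1 and 2.83 in KO2 (limma adjusted p = 0.00135 and 0.0106). In Rescue1 it was listed at 0. NCSTN, another subunit, was lower in the rescue clones than with eGFP by −1.34 (limma adjusted p = 1.9e-04). ADAM10, the protease that makes the first ligand-induced cut, fell with TGF-β by 1.13 (limma adjusted p = 2.0e-06), from 5650 and 6863 in WT to 3011 and 2679, and by −0.99 when WT replicate 2 was left out.

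TLE genes encode co-repressors that work with HES proteins. TLE3 had 514.2 and 239.5 normalized counts in WT libraries and 1743 and 1313 in TGF-β libraries. KO1 libraries held 1891 and 1556 of TLE3 and KO2 libraries 1424 and 854.4, and the gene rose by 2.10, 2.29 and 1.65 in these 3 groups (limma adjusted p = 0.00227, 4.0e-04 and 0.00677). TLE1 fell with TGF-β by 1.60 and in KO1 by 1.73 (limma adjusted p = 1.4e-04 and 1.8e-05). CREBBP, a histone acetyltransferase co-activator, was called higher in KO2, but KO2 replicate 1 held 8089 and replicate 2 1787, and the log2 change was 0.60 when replicate 1 was left out. DLL3, a divergent Delta-like protein, changed by −3.14 in KO1 and −2.29 in KO2 (limma adjusted p = 0.00231 and 0.023), from 15.4 and 15.2 in WT to 2.4 and 0 in KO1 and 1.1 and 4.3 in KO2. MAML3, a Mastermind co-activator, was 77.1 and 58.1 in WT and 234.4 and 245.6 in KO2, a rise by 1.83 (limma adjusted p = 4.5e-04), and it was lower in Rescue2 than in KO2 by −1.58 (limma adjusted p = 0.0016). RBPJ, the DNA-binding partner of the cleaved receptor, ranged from 1224 to 2682 over all libraries. It was higher in KO1 by 0.85 and in KO2 by 0.77 (limma adjusted p = 2.5e-05 and 1.0e-04), under the size needed for a call.

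HES2, another HES repressor, was called higher in KO2, where HES4 was called lower. It was 60.6 and 25.1 in WT, 71.7 and 127.0 in KO1 and 140.8 and 149.9 in KO2. Its log2 change was 1.87 in KO2 (SE 0.56, limma adjusted p = 0.0208) and 1.27 in KO1 (limma adjusted p = 0.0897). The rescue clones held 56.3 to 219.1 of HES2, above eGFP cells at 10.9 and 13.1 by a log2 change of 2.96 (SE 0.49, limma adjusted p = 3.1e-04). Against WT, eGFP cells were lower by −1.63 (limma adjusted p = 0.0446), or −1.01 when WT replicate 1 was left out. HES7 was 16.8 and 18.1 in WT and 1.5 and 0 with eGFP, and was called lower there.

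DNER, a non-canonical ligand, was called higher in KO1, at 19.2 and 36.8 against 0 and 3.5 in WT. The Fringe glycosyltransferases MFNG and RFNG modify the receptor. MFNG was called higher in KO1, at 65.8 and 44.5 against 26.5 and 5.0 in WT, with a log2 change of 2.10 (limma adjusted p = 0.0485) that became 3.20 once WT replicate 1 was left out and 1.0 once WT replicate 2 was. In Rescue1, MFNG changed from KO2 by −2.44 (−1.43 without Rescue1 replicate 2) and RFNG by −2.16 (limma adjusted p = 0.031 and 6.4e-04).

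**Figure D5:**
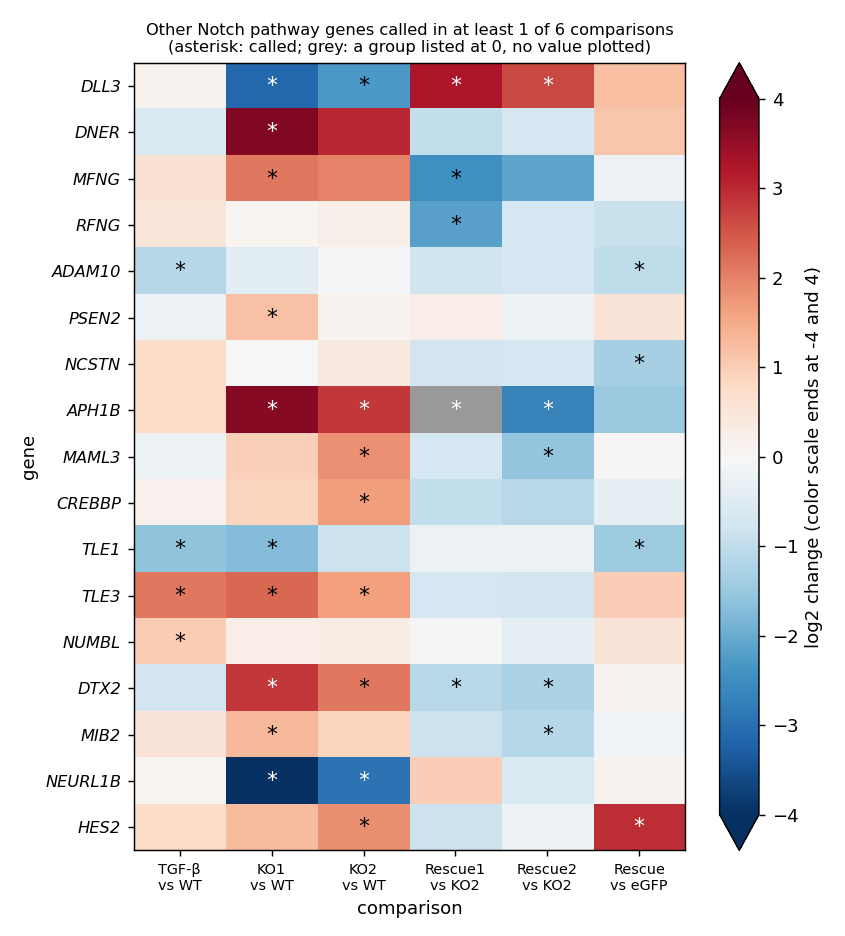
Log2 change on the log2(normalized count + 1) scale of the 17 other Notch pathway genes called in at least 1 of 6 comparisons; red is higher, blue is lower, an asterisk marks a call and grey a comparison with a group listed at 0. DTX2 is 2.83 and 2.12 in the KO clones and −1.12 and −1.27 in the rescue clones against KO2, and NEURL1B is −6.36 in KO1.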

How the data were processed

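RNA-seq libraries were made from poly(A) RNA of RPTEC, 2 per group, and grouped by their labels. The authors quantified reads with Salmon 1.9.0 on Ensembl release 94 cDNA of GRCh38, used DESeq2 1.26.0, and deposited log2 values for 36859 genes. That these are variance-stabilized was read from the values, which share a floor of 11.32 and reach 21.28. They were converted to normalized counts by inverting the transformation. Values near a floor came from few reads, and reads are approximate because transcript-based estimates need not be whole. A design on log2(normalized count + 1) was kept.

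The 14585 genes that reached 10 normalized counts in 2 libraries or more entered limma 3.58.1 in R 4.3.3 with trend, all 22 libraries in 1 fit, a mean per group, no covariate and Benjamini-Hochberg adjustment over all genes tested. A call needed a log2 change over 1 in size besides an adjusted p below 0.05. The procedure was tested on simulated data with the same spread for every gene and with means near 0 raised. Groups listed at 0 and replicates far apart were thus not covered. Members and lists were chosen with earlier results of these data known. All members are named, as are other pathway genes called in a comparison, and the 3 genes whose 11 group means correlated best with each tested member, except that 1 of these is not reported here. RBPJ is named besides, after its values were seen. The exact interval of read ratios is Clopper-Pearson and covers counting error only, not the spread between libraries. Promoters are from RefSeq (GRCh38.p14) and gene positions from GENCODE 44. Leukocyte markers summed to at most 20 normalized counts. The alternatives tried are given in the closing section.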

Additional observations from a re-analysis of the deposited data

Results flagged for a closer look

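The fall of JAG1 differed between the SETD2 KO clones. Under the same contrast with WT the log2 change was −6.01 for KO1 and −4.01 for KO2, and the direct limma test of KO1 against KO2 gave a log2 change of −2.01 (SE 0.29, limma adjusted p = 2.6e-04), with 86.6 and 95.5 normalized counts in KO1 and 335.9 and 403.6 in KO2. Both replicates of a group come from the same clone, so the difference is between 2 clonal lines.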

How the results depend on the processing

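Of 387 recomputed changes of members that passed the adjusted threshold, 338 kept direction and call, 49 lost the call and 0 reversed. A member that failed the filter of a setting counts as neither kept nor lost. Fits of only the libraries compared thus cover 22 of 27 member results, and a filter on a mean of at least 50 normalized counts covers 23. Of the 49 lost, 23 were lost on the deposited log2 scale, which compresses changes by its construction, and not only at few counts. HES1 in eGFP against WT cells, at 1134 and 1060 against 2.6 normalized counts, was not called there. On that scale the members called were 1 for TGF-β, 1 for KO1 and 1 for KO2 against WT, 1 for KO against TGF-β, and 0 for KO1 against KO2, Rescue1, Rescue2 and the libraries labelled KO2 rescue against KO2, rescue against eGFP and eGFP against WT. Members called between KO1 and KO2 were 2 with a pseudocount of 0.5 and with quantile normalization, and 2 were called in KO1 with a pseudocount of 5. In fits of only the libraries compared they were 0 for TGF-β, 2 for KO1 and 2 for KO against TGF-β. Leaving out 1 library gave 1 to 2 members for TGF-β, 1 to 2 between the clones, 3 to 5 in KO2 and 1 to 2 for the libraries labelled KO2 rescue. The cause was not tested. Scaling each library to the same total shifted the median of all genes by −0.39 in KO1, −0.20 in KO2 and with TGF-β, and 0.23 and 0.28 in Rescue1 and Rescue2, and changed no member call. Leaving out both libraries labelled KO2 rescue, chosen after seeing the data, changed no member call.

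Replicate numbers did not pair the libraries, since deviations from group means correlated at −0.082 to 0.047 over 55 pairs of groups. With a replicate block the JAG1 change in KO1 was −6.01 and 27 of 27 member results kept their call.

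Counts over all genes tested moved by more than 1.5 times in fits of only the libraries compared, to 431 from 1143 for TGF-β, 2241 from 3653 for KO1, 255 from 1016 between the clones, 44 from 145 between the rescue clones and 1208 from 1856 for eGFP against WT. Of the other pathway genes those fits called 2 for TGF-β, 6 for KO1 and 4 for KO2, where 4, 10 and 8 were called with all libraries. With KO1 in place of KO2, 9 other pathway genes were called for Rescue1 and 11 for Rescue2, where 5 each were called, and 3610 and 3562 genes in all, from 2351 and 2226. On the deposited log2 scale 0 other pathway genes were called in any comparison, and 0 to 178 of all genes. For SOX2, OCT2 and PRRX1 the counts over all genes were 3, 5 and 6, 16, 14 and 18 with no filter, and 35, 32 and 40 without eGFP replicate 2. Leaving out 1 library also moved the count between the KO clones from 1016 to 1730 (KO1 replicate 1) and 635 (KO2 replicate 2), and that for TGF-β from 1143 to 734 (WT replicate 2).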

Other observations

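For each tested member the genes most like it were found from the Pearson correlation of 11 group means of log2(normalized count + 1), over the same libraries and with no test. For JAG1 these were FXYD5 (r = 0.98) and AP1G2 (0.97), and for HES4 TMEM265 (0.98), CMTM7 (0.96) and PSMB10 (0.96). For HES1, whose group means split by serum, they were STRN, PRPF38B and MIER1 (each 0.99). For HEY1 they were BNIP3P4 (0.98), LATS1 (0.96) and ARHGAP10 (0.96). The values were lower for the members listed at few counts, with at most 0.91 for NOTCH1 (GOLGA2P10, XPO6, ZSCAN25), 0.91 for NOTCH2 (IKZF2, ENSG00000285713, CSPG5) and 0.92 for JAG2 (SCFD2, SELENOK, PTPN23).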
